A study of Mus musculus with 16 samples.

Results

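Collagen genes were taken from the deposited gene annotation as the Ensembl protein-coding genes named Col, a number, a and a number. There were 44 such genes among 22159 protein-coding genes, on 15 chromosomes, and they held 1913 of the 158159 internal coding exons, that is, coding exons that are neither the first nor the last of a gene's coding sequence (CDS). The rule counts internal coding exons of 45, 54, 99, 108 or 162 bases, called counted lengths here, and keeps 8 fibrillar genes apart from the rest (Col1a1, Col1a2, Col2a1, Col3a1, Col5a1, Col5a2, Col11a1 and Col11a2). The symbols matched their gene IDs in all 44 genes, and all 44 collagen symbols of the RefSeq gene table had a gene model.

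The series holds 16 libraries of mouse bone-marrow-derived macrophages, grown for 7 days with the growth factor M-CSF at 50 ng per ml and left untreated or given lipopolysaccharide (LPS). RNA-seq covered 3 untreated and 3 LPS samples and ribosome profiling 2 untreated and 2 LPS samples, all wild type on the C57BL/6 background, with no LPS duration given per sample. RiboTag, which recovers RNA from a tagged ribosomal protein in cells that express Cre from the LysM (myeloid) promoter, covered 2 untreated samples, 2 at 6 h and 2 at 24 h of LPS, of genotype LysM-Cre x RiboTag with no strain named. The file analysed is a gene annotation with no value per library, so the depth is unknown, nothing below compares treatments and no expression of a collagen in macrophages is described. Gene models are not samples. Shares therefore carry Wilson 95% intervals only as a description of how many exons were counted, and no test is given. The intervals treat exons as independent, although related genes can have nearly the same series of exon lengths.

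Collagens are extracellular matrix proteins built around a triple helix, in which each chain repeats the triplet Gly-X-Y, with glycine at the position that faces the helix axis. A triplet takes 9 bases of coding sequence, so the counted lengths correspond to 5, 6, 11, 12 and 18 whole triplets. Below, triplets are a unit of length of 9 bases. Whether an exon codes for Gly-X-Y was not read, in collagens or in other genes. Fibrillar collagens form the banded fibrils of bone, skin, tendon and cartilage. Other classes form sheets in basement membranes, beaded filaments, anchoring fibrils or membrane-bound proteins, or sit on the surface of fibrils, and their helices carry more interruptions.

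Exons of counted length made up most of the fibrillar genes and a minority of the other collagens. In the 8 fibrillar genes, 349 of 443 internal coding exons had a counted length (78.8%, 95% interval 74.7 to 82.3%). In the other collagens it was 431 of 1470 (29.3%, 27.0 to 31.7%). Over all protein-coding genes, collagens included, it was 3.52% (5569 of 158159), and without the collagens 3.07%. The 54-base exon was the commonest, with 208 fibrillar exons (47.0%), followed by 66 exons of 108 bases, 45 of 45, 25 of 99 and 5 of 162. Among the other collagens, 261 exons had 54 bases (17.8%), 114 had 45, 33 had 108, 14 had 99 and 9 had 162. Over all protein-coding genes 1100 of the 158159 exons had 54 bases (0.696%), 558 had 45, 1478 had 108, 1540 had 99 and 893 had 162. At 99 and 162 bases the other collagens, with 14 and 9 of 1470, thus lay near the share over all genes.

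**Figure D1:**
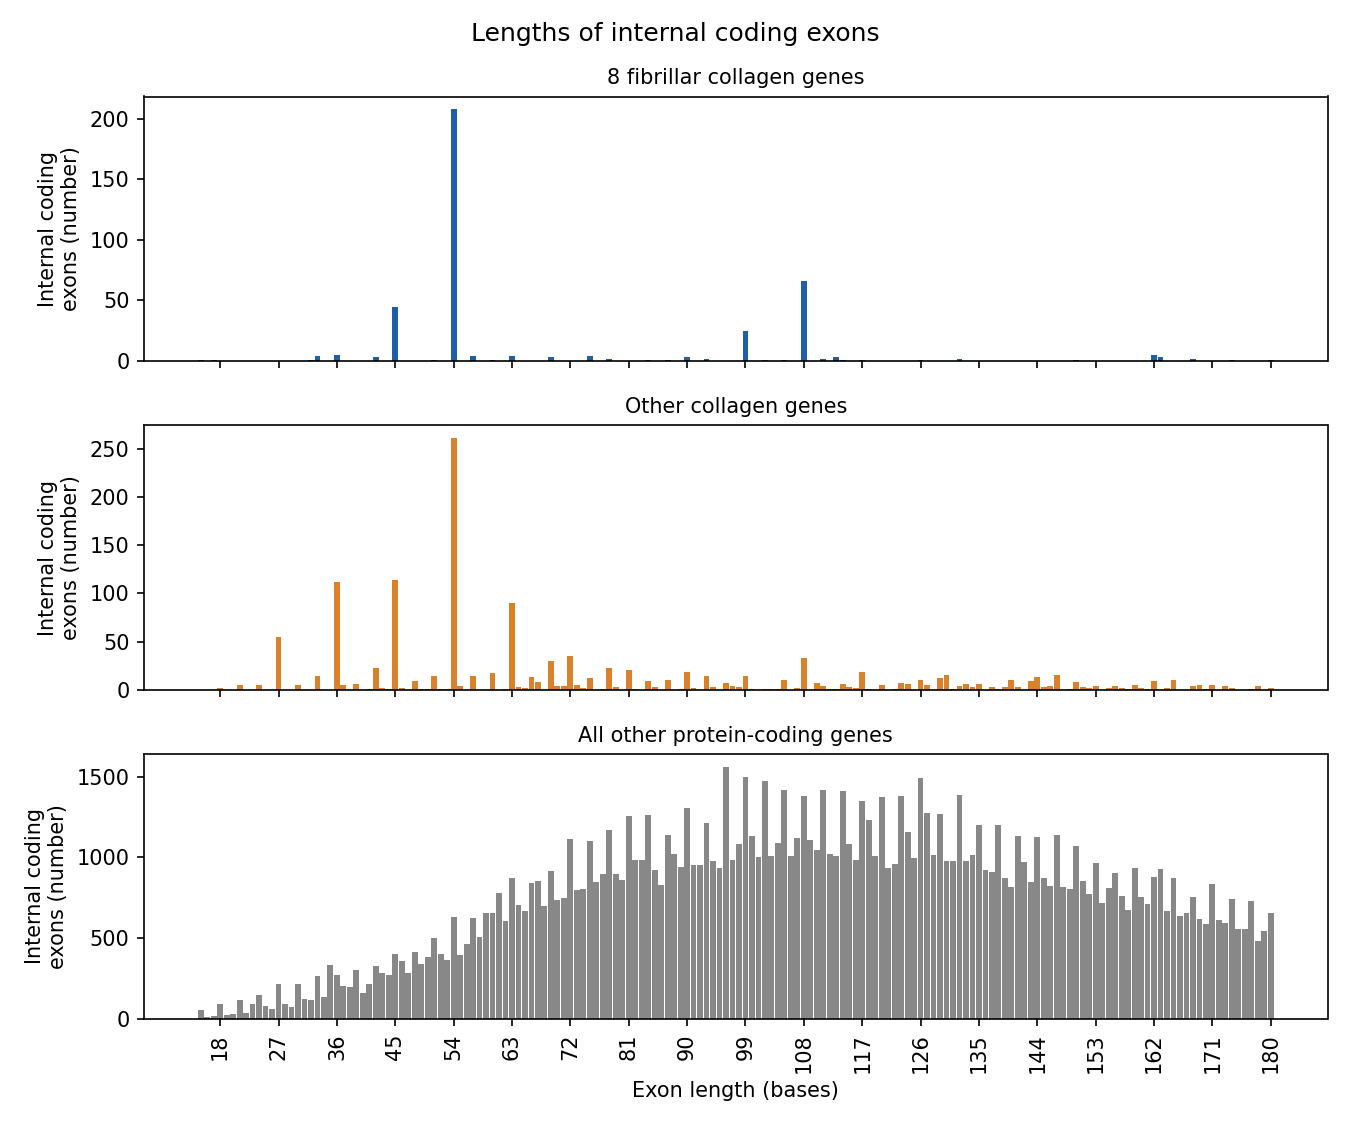
Number of internal coding exons (y) by exon length in bases (x, 15 to 180) in the 8 fibrillar genes, the other collagens and all remaining protein-coding genes, each on its own scale. The fibrillar exons stand in separate spikes, with 208 exons at 54 bases and 66 at 108, while the remaining genes spread over all lengths.

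Collagen exons of 54 bases had almost no neighbours in length. The collagens held 469 exons of 54 bases, but 1 of 53 and 4 of 55. These 469 were 42.6% of all 1100 exons of 54 bases in the annotation. Collagens are 44 of 22159 genes and hold 1913 of the 158159 internal coding exons. Collagens also held 28.5% of all 45-base exons, 30.3% of 36-base exons and 20.6% of 27-base exons. At the longer counted lengths, where exons of other genes are common, the collagen part was smaller, 2.53% at 99 bases, 6.70% at 108 and 1.57% at 162. The value at 162 bases was not far above the collagen part of all internal coding exons.

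A looser rule, which takes in every counted length, gave the same order of the groups, so that order was partly built in. Lengths that are a multiple of 9, whole triplets, made up 83.7% of fibrillar internal exons (371 exons, 95% interval 80.0 to 86.9%) and 57.9% in the other collagens (851 exons, 55.3 to 60.4%), against 14.2% in all protein-coding genes. Of these multiples of 9, 349 of the 371 fibrillar exons and 431 of the 851 exons in other collagens had a counted length. Multiples of 3, which keep the reading frame when an exon is left out, made up 93.9% and 84.7%, against 40.7%. The other collagens thus lay nearer to the fibrillar genes by whole triplets than by the 5 counted lengths.

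The fibrillar genes fell into a higher and a lower band. Col1a2, a chain of type I collagen, the main collagen of bone and skin, had the highest share with 43 of 50 internal exons (86.0%). Col3a1, the chain of type III collagen of vessels and skin, had 42 of 49 (85.7%) and Col1a1, the other type I chain, 41 of 49 (83.7%). Col2a1, the cartilage collagen, and Col5a2, a chain of the fibril-regulating type V collagen, both had 43 of 52 (82.7%). The lower band held Col11a2 with 46 of 62 (74.2%), Col11a1 with 46 of 65 (70.8%) and Col5a1 with 45 of 64 (70.3%), chains of the minor fibrillar types V and XI. These 3 genes had more counted exons than the others, and also more internal exons outside the counted lengths. The intervals of the 8 genes overlapped, from 58.2 to 80.1% in Col5a1 to 73.8 to 93.0% in Col1a2.

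Genes of known fibril-forming collagens that the rule leaves outside the fibrillar list had shares in the same range. Col24a1 had 47 of 58 (81.0%), Col27a1 47 of 59 (79.7%) and Col5a3, the remaining type V chain, 47 of 65 (72.3%). Together these 3 genes had 141 of 182 (77.5%, 95% interval 70.9 to 82.9%). The other 30 genes with internal coding exons ranged from 2.63 to 60.7%, and all 30 lay under Col5a1, the lowest fibrillar gene. Without the 3 genes the share of the other collagens was 290 of 1288, or 22.5%. Col8a1, Col8a2 and Col10a1, short-chain network-forming collagens, have 2 coding exons and no internal one, so they give no value.

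**Figure D2:**
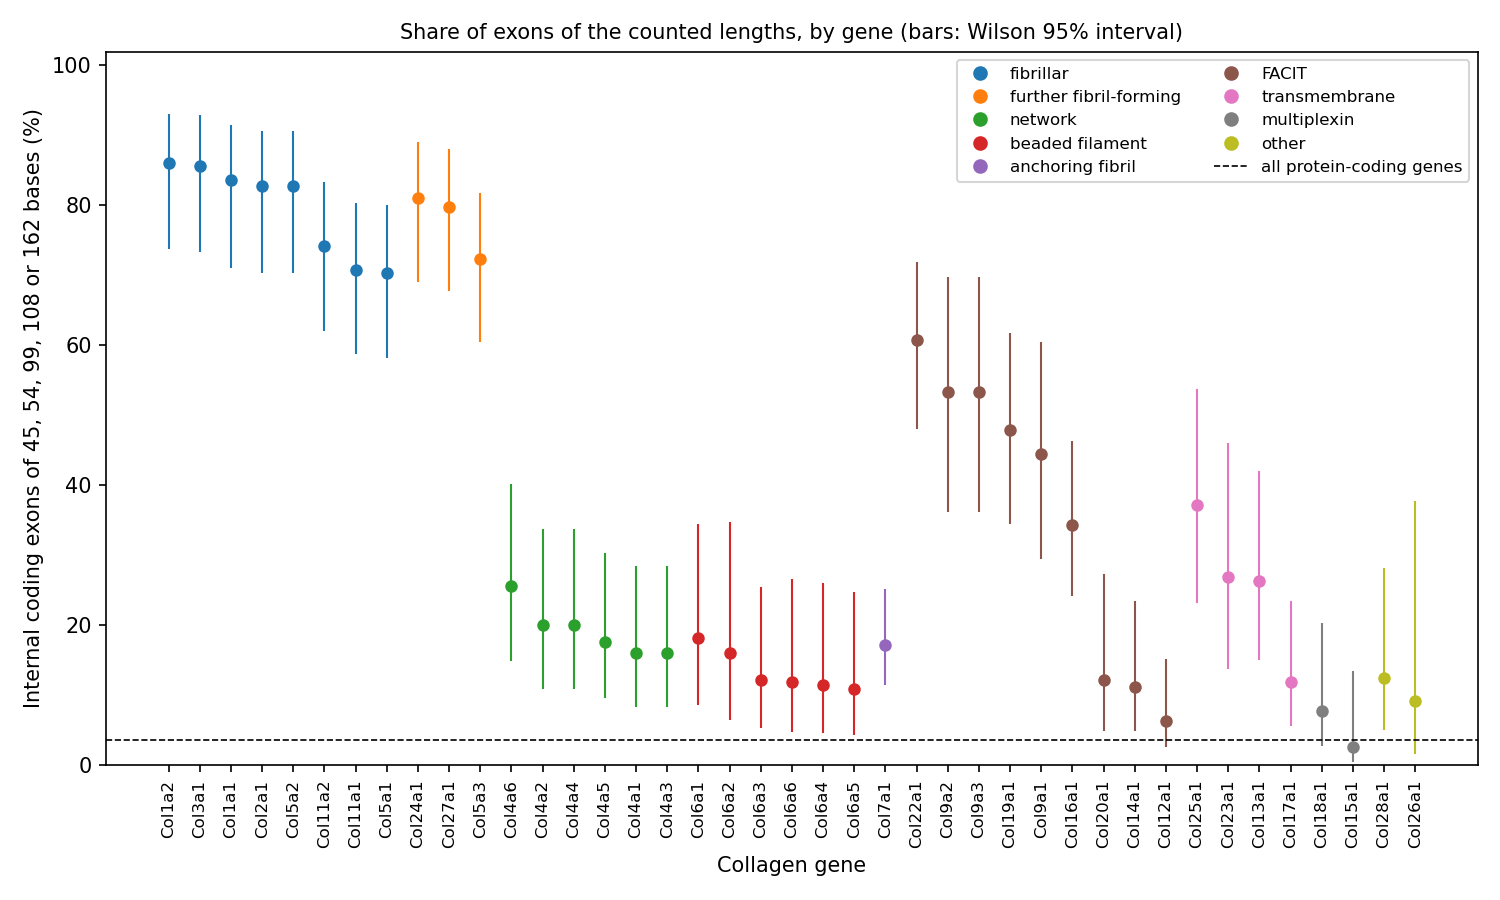
Share of internal coding exons of counted length in % (y) for the 41 collagen genes with internal coding exons (x), coloured by class, with Wilson 95% intervals and a dashed line at the share over all protein-coding genes, 3.52%. The 11 fibril-forming genes lie at 70.3% or more and the other 30 at 60.7% or less.

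Among 5763 protein-coding genes with at least 10 internal coding exons, 17 had over 50% of counted length (0.295%), and 14 of the 17 were collagens out of 41 collagens with so many exons. The first 11 ranks were the 11 fibril-forming genes. The first other genes were Ankdd1a and Ankdd1b, which encode ankyrin repeat proteins, at 66.7%, and all 8 counted exons of each had 99 bases. The other gene over 50% was Marco, at 60.0%. No exon of counted length was found in 58.4% of the 5763 genes.

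The order of the exon lengths along the gene, which the rule does not use, was alike within groups of the fibril-forming genes. The genes were put in 3 patterns, chosen after the values were seen. The first held Col1a1, Col1a2, Col2a1, Col3a1 and Col5a2, the second Col5a1, Col5a3, Col11a1 and Col11a2, and the third Col24a1 and Col27a1. Likeness was taken as the number of internal exons with the same length in the same order, in % of the shorter series. It was 81.6 to 90.4% over the 10 pairs of the first pattern, 81.2 to 87.5% over the 6 pairs of the second and 94.8% for the pair of the third. Between the patterns it was 59.2 to 69.4%, and the longest stretch of identical lengths was 9 to 14 exons, against 25 to 53 within them.

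**Figure D3:**
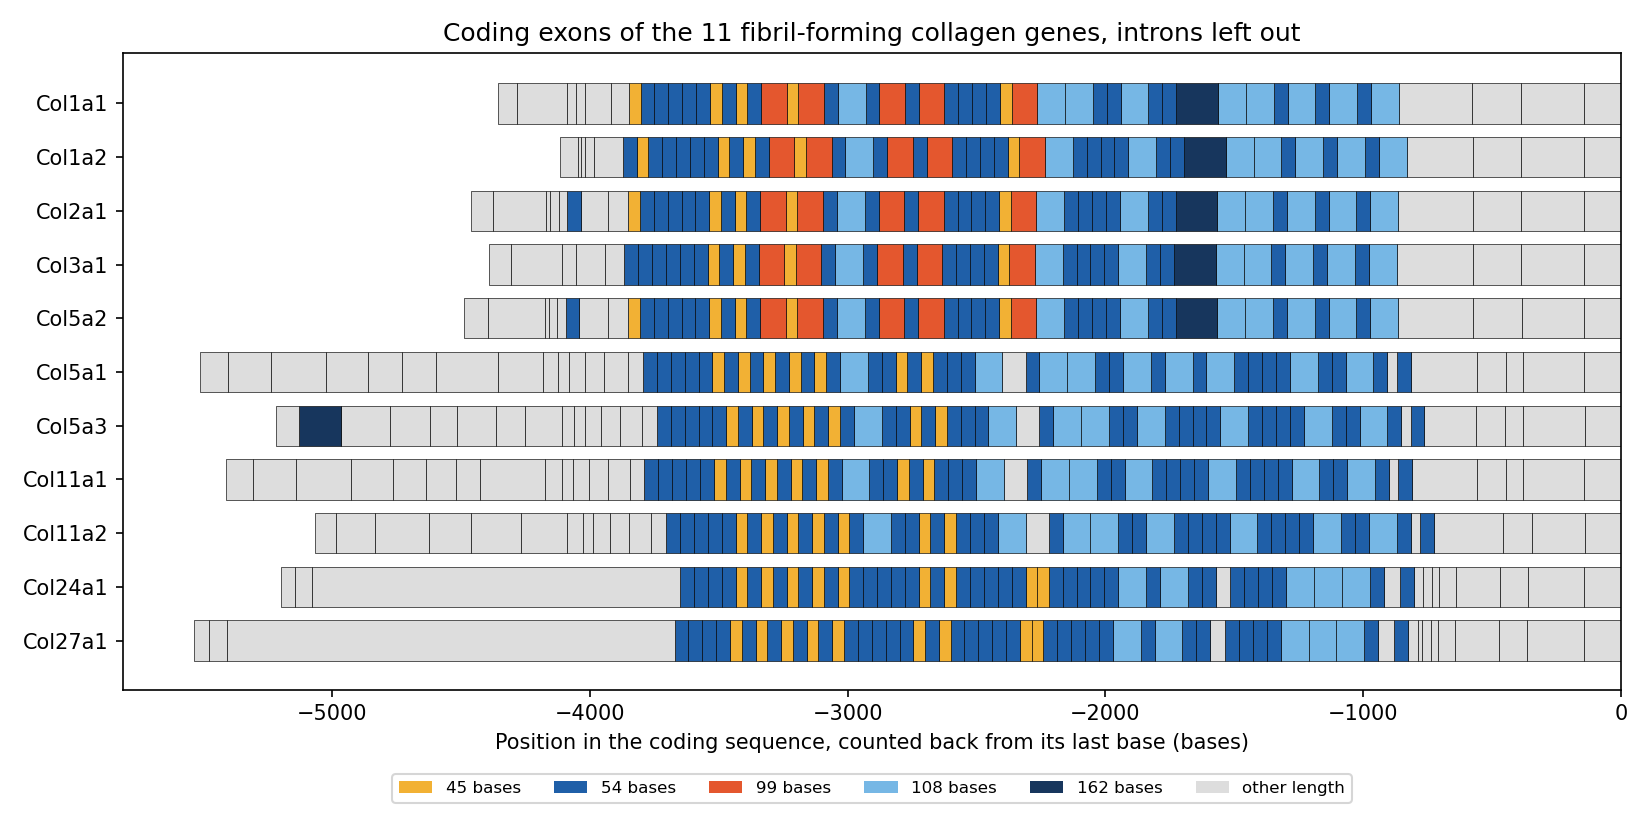
Coding exons of the 11 fibril-forming genes drawn to length without introns, with position in bases counted back from the last coding base (x), one gene per line and colours for the counted lengths. The 5 genes of the first pattern carry 99-base and 162-base exons at matching places, and the 4 of the second have none of 99 bases and alternate exons of 45 and 54 bases.

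**Figure D4:**
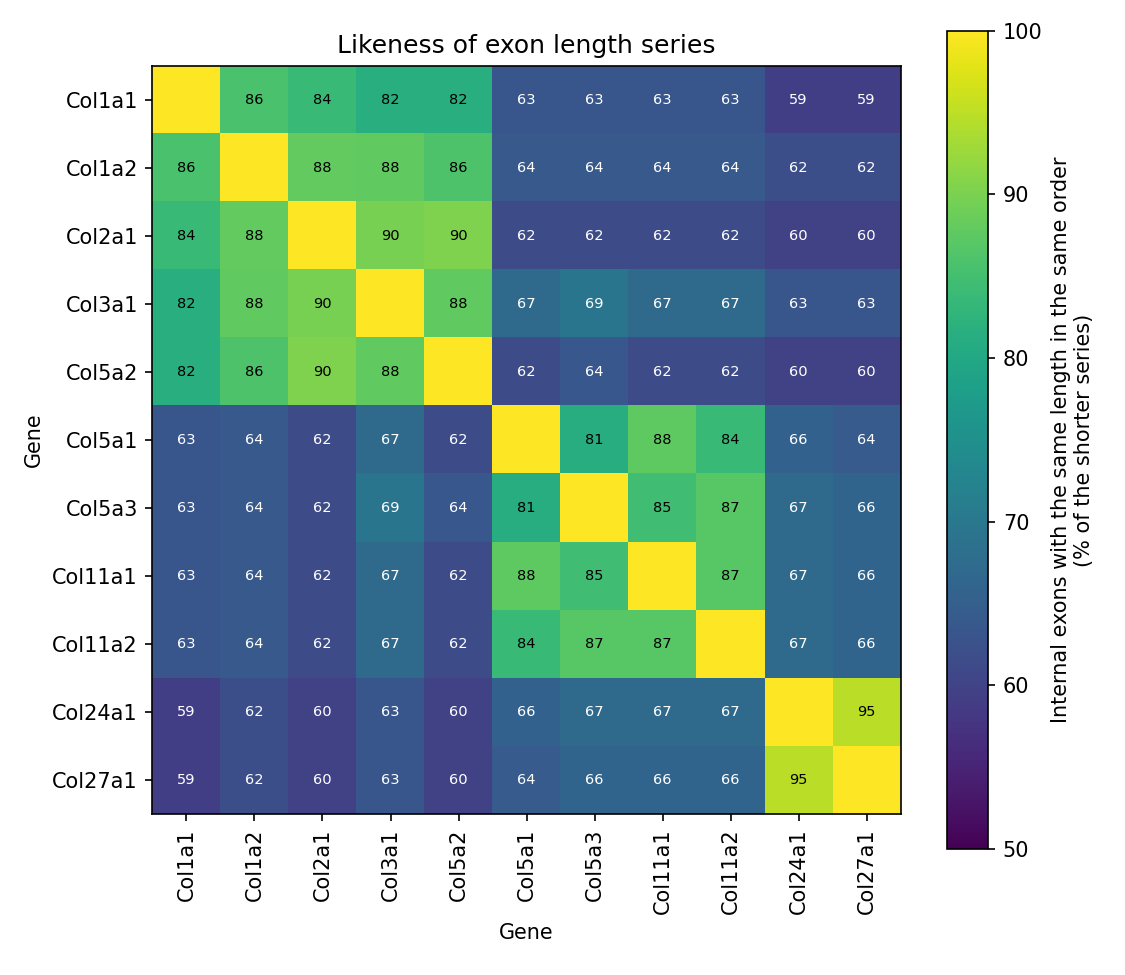
Likeness of the exon series for the 11 fibril-forming genes against each other, as the % of internal exons of the shorter series that have the same length in the same order (colour and number in each cell). Blocks with 81.2% or more stand out along the diagonal, and all cells between blocks lie between 59.2 and 69.4%.

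Each fibril-forming gene had a long uninterrupted run of exons that are whole triplets long and start with a whole codon. The longest run had 41 exons and 2988 bases, or 332 triplets, in Col1a1, and 43 exons and 3042 bases (338 triplets) in Col1a2. Col2a1 and Col5a2 had 42 exons and 2988 bases and Col3a1 42 exons and 2997 bases (333 triplets). In the second pattern the run had 2979 bases (331 triplets) in all 4 genes, with 47 exons in Col5a1 and 48 in Col5a3, Col11a1 and Col11a2. In Col24a1 and Col27a1 it had 38 exons and 2079 bases (231 triplets), and a single exon of 57 bases parted it from another such run. That run had 13 exons and 810 bases in Col24a1 and 14 exons and 828 bases in Col27a1. In the other 9 genes the next longest run had 1 or 2 exons.

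The borders between exons within these runs, counted from the 3′ end of the run, were almost the same within a pattern. All 40 borders of Col1a1 were borders in the other 4 genes of the first pattern too, and the 5 genes together had 42. Each of Col2a1, Col3a1 and Col5a2 had 1 border more than Col1a1, where Col1a1 has a 108-base exon and the others have 54 and 54 bases, and Col1a2 had 2 more. In the second pattern all 46 borders of Col5a1 were found in the other 3 genes, which had 47. In the third pattern all 37 borders were the same.

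The exon series of Col1a1 shows the alternation. After an exon of 45 bases come 5 exons of 54, followed by 45, 54, 45, 54 and 99 bases, and later stretches alternate 54 with 99 or 108. The single 162-base exon stands nearer to the 3′ end of the run than to its start, and each of the 5 genes of the first pattern has exactly 1. The last 4 coding exons, behind the run, had 283, 191, 243 and 144 bases in Col1a1, and none is a counted length. In Col5a1 the run is followed by exons of 256, 113, 69, 234 and 144 bases.

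Fibrillar internal exons mostly began at the same codon position. An exon whose length is a multiple of 3 hands its codon position to the next exon. Since 93.9% of fibrillar exons had such a length, this trait is not independent of the lengths. Of the 443, 418 (94.4%, 95% interval 91.8 to 96.1%) started with a whole codon, against 69.0% in the other collagens (1014 of 1470) and 45.6% over all protein-coding genes. Exons starting with the last 2 bases of a codon were 4.97% of fibrillar exons (22 exons) and 29.0% of those in other collagens, against 32.2% over all protein-coding genes. The 3 further fibril-forming genes had 94.5% whole-codon starts.

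**Figure D5:**
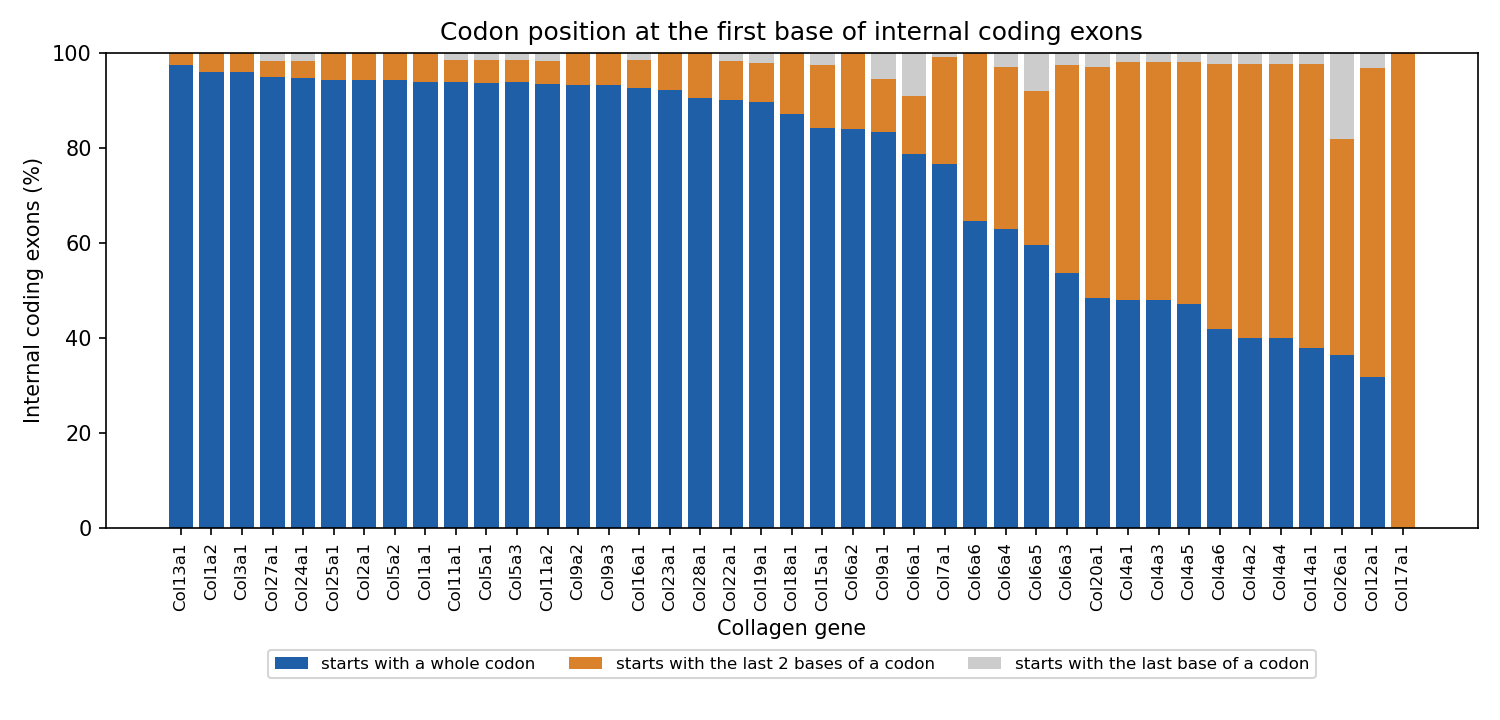
Internal coding exons in % (y) by the codon position of their first base, for the 41 collagen genes with internal coding exons (x), ordered by the share with a whole codon. The fibril-forming genes stand in the left part, among the genes with over 90% whole-codon starts, the 6 type IV genes stand toward the right with under 50%, and Col17a1 is last, with all 51 exons starting with the last 2 bases of a codon.

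Type IV collagen, the network-forming collagen of basement membranes, had 54 of 284 internal exons of counted length (19.0%, 95% interval 14.9 to 24.0%). By gene the share ran from 16.0% in Col4a1 and Col4a3 (8 of 50 each) and 17.6% in Col4a5 to 20.0% in Col4a2 and Col4a4 and 25.6% in Col4a6. Multiples of 9 made up 47.2%, and 53.5% of the exons started with the last 2 bases of a codon, against 44.4% with a whole codon. The first such exon was coding exon 20 in Col4a1, Col4a3 and Col4a5 and coding exon 18 in Col4a2, Col4a4 and Col4a6. The series of lengths were also more alike within these groups of 3 than between them, though not the same. Likeness was 68.0 to 82.0% among the odd-numbered genes and 53.3 to 69.8% among the even-numbered, against 20.9 to 26.7% between them.

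The 6 type VI genes, whose chains form beaded filaments, had 27 of 205 exons of counted length (13.2%, 95% interval 9.21 to 18.5%). Col6a1 had the highest share (18.2%) and Col6a2 the next (16.0%), and Col6a5 (10.8%) and Col6a4 (11.4%) had the lowest. The commonest length in every one of the 6 genes was 63 bases, 7 triplets, with 7 exons in each gene and 8 in Col6a2. Col6a3, Col6a4, Col6a5 and Col6a6 had the same run of 6 exons and 315 bases of whole triplets with whole-codon starts. The run in Col6a1 and Col6a2 was longer, 15 exons and 765 bases and 13 exons and 720 bases.

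Col7a1, which forms the anchoring fibrils under the epidermis, had the most coding exons of all collagens, 118. Of its 116 internal exons 20 had a counted length (17.2%, 95% interval 11.4 to 25.1%) and 76 were multiples of 9 (65.5%). Its commonest length was 36 bases, 4 triplets, with 26 exons. Its longest run of whole triplets with whole-codon starts had 9 exons and 441 bases.

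Collagens associated with fibrils but with interrupted helices (FACIT) were the most varied class, with 144 of 413 exons of counted length (34.9%, 95% interval 30.4 to 39.6%). Col22a1, of tissue junctions, had the highest share, 37 of 61 (60.7%), 28 of them with 54 bases. Col9a2 and Col9a3, chains of the cartilage collagen type IX, had 16 of 30 each (53.3%), and the remaining chain Col9a1 16 of 36 (44.4%). The 3 type IX genes had the same run of 15 exons and 792 bases (88 triplets) and a likeness of 86.7 to 96.7%. Col19a1 had 47.9% and Col16a1 34.3%. Col12a1 (6.35%) and Col14a1 (11.1%), long chains with many fibronectin type III domains, had the lowest shares, and the commonest length in Col12a1 was 130 bases with 7 exons, not a multiple of 3.

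Transmembrane collagens had 36 of 150 exons of counted length (24.0%, 95% interval 17.9 to 31.4%), but 70.7% multiples of 9 and 96.0% multiples of 3. Col25a1 had 37.1%, Col23a1 26.9%, Col13a1 26.3% and Col17a1, of the hemidesmosomes that fasten skin cells to their base, 11.8%. Exons of 27 bases, 3 triplets, were the commonest in Col13a1 (10 exons) and Col23a1 (8 exons). In Col17a1 all 51 internal exons were multiples of 3 and all 51 started with the last 2 bases of a codon, so it had no whole-codon run at all.

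The remaining genes had few exons of counted length. The multiplexins, basement membrane collagens whose C-terminal ends are released as fragments, had 4 of 77 (5.19%, 95% interval 2.04 to 12.6%), with 7.69% in Col18a1 and 2.63% in Col15a1. Their multiples of 9 made up 37.7%. Col26a1 had 1 of 11 (9.09%). Col28a1 had 4 of 32 (12.5%), and its commonest length was 69 bases with 15 exons, whole codons but not whole triplets.

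Collagen-like proteins outside the name rule carry Gly-X-Y stretches too, among them macrophage receptors and the lectins of innate immunity. All 32 listed genes were found, and 5 of them, C1qa, C1qb, C1qc, C1qtnf5 and Adipoq, have no internal coding exon. In the other genes 25 of 149 internal exons had a counted length (16.8%, 95% interval 11.6 to 23.6%) and 49.7% were multiples of 9. Of these exons 71.8% started with the last 2 bases of a codon and 21.5% with a whole codon, the opposite of the fibrillar genes. Marco, a scavenger receptor of macrophages, had 9 of 15 exons of counted length, 4 each of 45 and 99 bases and 1 of 108, and all 15 started with the last 2 bases of a codon. Colq, the collagen tail of acetylcholinesterase, had 3 of 15, with 12 whole-codon starts, and Emid1 3 of 13. In Sftpd, surfactant protein D, 4 of 5 internal exons had 13 triplets, a length that is not counted.

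Genes that make or bind collagen had few of these exons. Of the 33 listed enzymes and chaperones, among them the prolyl hydroxylases and the lysyl oxidases, all were found, and 3 of 399 internal exons had a counted length (0.752%, 95% interval 0.256 to 2.19%), with 12.3% multiples of 9. In the 10 collagen receptors, integrin and discoidin domain receptor genes among them, it was 3 of 193 (1.55%, 95% interval 0.530 to 4.47%). None of these 43 genes had 3 or more such exons. Over all protein-coding genes 3.52% of internal exons had a counted length and 14.2% were multiples of 9. The receptor interval includes that 3.52%, while the interval of the enzymes and chaperones lies below it. By multiples of 9, the 12.3% of the enzymes and chaperones was near the 14.2%.

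Few collagen exons were left out in another transcript. An internal exon counted as left out when another complete coding transcript of the gene ran on both sides of it without it. Complete meant with start and stop codon lines, and transcripts marked for nonsense-mediated decay were not set apart, in collagens or in other genes. This held for 18 of 1913 collagen exons (0.941%), in 11 genes, against 4.02% over all protein-coding genes. All 18 were multiples of 3, against 56.4% of the 6354 such exons over all genes, and 8 (44.4%) were multiples of 9, against 19.4%. Only 2 had a counted length, a 99-base exon of Col13a1 and a 45-base exon of Col25a1. Over all 1913 collagen exons, 86.8% were multiples of 3, 63.9% multiples of 9 and 40.8% of counted length. The left-out exons were thus not richer in whole triplets than collagen exons in general. The fibrillar genes had 2 of 443 (0.451%). One is coding exon 2 of Col2a1, with 204 bases, whose inclusion is known to differ between cartilage and its precursors, and the other coding exon 6 of Col11a2, with 180 bases. An exon can be left out only in genes with another complete coding transcript, which 22 of the 44 collagens had. Col1a1 and Col5a2 are among the 12 with 1 coding transcript. Within genes that have another complete coding transcript, a restriction chosen after seeing the data, the share was 18 of 1011 (1.78%), against 6.82% over all such genes.

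The 44 genes had 207 transcripts, 109 of them coding, that is, with CDS lines, which transcripts marked for nonsense-mediated decay can have too. Retained-intron transcripts numbered 62, in 25 genes (56.8%), and 30.0% of all protein-coding genes had one. Transcripts marked for nonsense-mediated decay numbered 7, in 6 genes (13.6%), near the 14.4% of all protein-coding genes. Col16a1 had the most transcripts, 13, followed by Col26a1 with 11. Of the transcripts read for the exon lengths, those of 42 genes were complete, and those of Col6a3 and Col6a5 had no stop codon line.

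Collagen genes had long spans. The median span was 114388 bases, against 16345 bases over all protein-coding genes. Col25a1 had the longest span, 468377 bases, of which 0.427% is coding in the transcript read, and Col10a1 the shortest, 7105 bases. The fibrillar genes ranged widely. Col1a1 lay on chromosome 11 from 94936224 to 94953042 on the plus strand and spanned 16819 bases, of which 25.9% were coding, with a median intron of 136 bases. Col1a2 spanned 36730 bases on chromosome 6, Col3a1 38169 and Col5a2 128962 on chromosome 1, Col2a1 29094 on chromosome 15, Col11a2 27249 on chromosome 17, Col5a1 153090 on chromosome 2 and Col11a1 190179 on chromosome 3. The median fibrillar intron was 424 bases, against 906 in the other collagens and 1282 over all genes. Genes with nearly the same exons could thus differ greatly in length. Col11a1 and Col11a2, both with a run of 48 exons and 2979 bases, spanned 190179 and 27249 bases.

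Neighbouring collagen genes were in 8 pairs. Head to head, with starts within 1000 bases on opposite strands, lay 2 pairs of type IV genes, Col4a1 with Col4a2 on chromosome 8 and Col4a4 with Col4a3 on chromosome 1. Head-to-head starts within 1000 bases were found for 10.5% of all protein-coding genes, and for 4 of the 44 collagens. The first exons of Col4a1 (11198423 to 11312826, minus strand) and Col4a2 (11312805 to 11449287, plus strand) overlapped by 22 bases. Col4a6 and Col4a5 on chromosome X were also head to head, with 1308 bases between them. The pairs combine an odd-numbered and an even-numbered gene, which had unlike exon series. The other pairs were Col3a1 and Col5a2 (24614 bases apart) and Col9a1 and Col19a1 (9205 bases), both tail to tail on chromosome 1, and 3 type VI pairs on the same strand, Col6a2 and Col6a1, Col6a6 and Col6a5, and Col6a5 and Col6a4.

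Between the starts of Col4a4 (minus strand, 82448423 to 82586849) and Col4a3 (plus strand, 82586921 to 82722059) lie 71 bases, chr1:82586850-82586920, shown because both genes begin at its edges. The plus strand is given, from RefSeq, GRCm38.p6. It holds 69.0% G and C. The TATA box motif TATAAA, the CCAAT box motif and the GC box motif GGGCGG were not in these letters on either strand, so no letter is in capitals.
Col4a4-Col4a3: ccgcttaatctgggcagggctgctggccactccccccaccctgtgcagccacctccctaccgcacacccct

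Promoter windows of RefSeq, the 250 bases before a start, were matched by symbol for 35 of the 44 genes, and for genes with several the one nearest the Ensembl start was taken. In 21 genes the window ended at the Ensembl start. In the others the RefSeq start lay elsewhere, 1408 bases away in Col27a1 and 49344 bases in Col25a1, and 15 windows held exons of the same or another gene. The GC box motif GGGCGG, on either strand, was found in 21 of 35 windows (60.0%), against 32.7% of all 32851 windows. Those 32851 were not reduced to a single window per gene, as the collagen windows were, so the sets compared here are unlike. The CCAAT box was found in 12 (34.3%, against 33.8%) and the TATA box TATAAA in 5 (14.3%, against 12.4%). The median G and C content was 59.2%, against 52.4%, and its part in the share of GGGCGG was not tested. Of the 5 fibrillar genes with a window, Col3a1 and Col11a2 had the TATA box motif, 117 and 143 bases before the RefSeq start. That start lay 299 bases from the Ensembl start in Col11a2. Whether these motifs act in the promoter was not tested. Col11a1 had the CCAAT box motif. The Col1a2 window also held that motif, but its start lay 804 bases from the Ensembl start and held exon bases of Col1a2.

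Of the 8 small RNA genes within collagen genes, 3 were annotated as microRNAs, and Mir455 was the 1 of them in an intron on the same strand. It lay on chromosome 4 in the intron of 2318 bases after coding exon 10 of Col27a1, on the plus strand. Mir711 overlapped exons of Col7a1 by 36 bases on chromosome 9, and the model AC125167.1 overlapped those of Col3a1 by 141 bases. The mature sequences of the first 2, from RefSeq, GRCm38.p6, are shown because they lie within collagen transcripts, 5′ to 3′ with the seed (bases 2 to 8) in capitals. The 3 seeds differ.
mmu-miR-455-5p (chr4:63256867-63256888, plus strand): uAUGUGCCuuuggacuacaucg
mmu-miR-455-3p (chr4:63256904-63256924, plus strand): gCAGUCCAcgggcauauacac
mmu-miR-711 (chr9:108969970-108969991, plus strand): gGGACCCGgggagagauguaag

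Exon bases shared with another gene on the same strand were found in 4 collagens (9.09%), against 13.3% of all protein-coding genes. Besides Col7a1 and Col3a1 these were Col20a1, which shared 79 bases with 9230112E08Rik, and Col26a1, which shared 2705 bases (33.1% of its exon bases) with Emid2, a RefSeq-source model under an older symbol of the same gene. Reads on these bases could not be assigned to one gene by position alone. On either strand the number was 16 (36.4%), against 31.9% of all protein-coding genes, among them Col9a3, which shared 234 bases with Tcfl5, and Col1a2, which shared 944 bases with a RefSeq-source model.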

How the data were processed

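The authors deposited 1 gene annotation (1544831 lines) whose positions, in bases counted from 1, and codon frames were the measurements used. Per the submitters' processing notes, TopHat2 2.1.1 and the build mm10 were used. The way the annotation was put together is not given in the sources used. Library values were not analysed here, and 0 columns hold values per sample. With Python 3.11.15, numpy 2.4.6 and scipy 1.17.1, the Ensembl transcript with the longest CDS was read for each protein-coding gene, with ties broken by transcript ID. CDS lines leave out the stop codon. Codon position came from the frame column. Uninterrupted runs needed lengths that are multiples of 9 and whole-codon starts. On simulated gene models, the code gave the right number of counted lengths in 2000 of 2000 genes. It found 200 of 200 planted runs and 200 of 200 planted left-out exons. The number checked against used the same list of lengths, so that check could hardly fail. All simulated models ran in plus-strand order, so the reading of minus-strand genes and of the annotation was not tested. Members and lists were chosen with earlier results of these data known. Genes were named by a rule covering the fibrillar genes, the highest and lowest shares in each class, head-to-head pairs and extremes of span, exons and transcripts, and other names were chosen after their values were seen. RefSeq tables of GRCm38.p6 gave the symbol check, promoter windows and mature microRNA sequences. Protein sequence and exon DNA were not used, so glycine codons at exon starts were not analysed here.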

Additional observations from a re-analysis of the deposited data

How the results depend on the processing

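Of 36 alternative values, 15 left the 95% interval of the reported share or differed from the reported count by over 1.5 times, and 21 did not. The settings that moved the shares most changed the lengths counted. With only multiples of 54 the share was 63.0% in the fibrillar genes, 20.7% in the other collagens and 2.53% in all protein-coding genes. With any multiple of 9 it was 83.7%, 57.9% and 14.2%, and with any multiple of 3 it was 93.9%, 84.7% and 40.7%, in the same order. Without Col5a3, Col24a1 and Col27a1 the share of the other collagens was 22.5%. Over all protein-coding genes it was 3.26% with first and last coding exons too, 3.65% without automatic models and 3.07% without collagens. The last of these and the restriction to the numbered chromosomes, X and Y, which gave 3.52%, were chosen after seeing the data. The share of collagen exons left out in another transcript, 0.941%, was 1.78% in genes with another complete coding transcript, a setting also chosen after seeing the data, since fewer exons are then counted. Collagens sharing exon bases with another gene rose from 4 to 16 on either strand, since more models are then compared. The fibrillar share was above that of the other collagens, and the latter above all protein-coding genes, under every setting run for all 3. Exons starting with a glycine codon were not run, because protein sequence and exon DNA were not used. No paired analysis was possible because the annotation holds no library values, and sequencing depth does not enter these counts.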

Other observations

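Outside the collagens, exons of 54 bases were about as common as those of the nearest multiples of 3. Without the collagens the annotation held 631 exons of 54 bases, 499 of 51, 622 of 57 and 653 of 60 bases, against 365 of 53 and 395 of 55. Exons of 45 bases numbered 399, between 327 of 42 and 415 of 48 bases. Within the collagens there were 469 exons of 54 bases and 18 each of 57 and 60.

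Some genes with long series of 99-base exons, picked by these values, are ankyrin repeat genes. All 14 counted exons of Ank1 and of Ank2, which encode ankyrins, all 9 of Kidins220 and all 6 of Ankrd6 had 99 bases, as in Ankdd1a and Ankdd1b. The annotation held 1501 exons of 99 bases outside the collagens. The 8 fibrillar genes had 25 such exons, 5 each in Col1a1, Col1a2, Col2a1, Col3a1 and Col5a2 and 0 in Col5a1, Col11a1 and Col11a2.

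Counted from the 3′ end of the uninterrupted run, Col1a1 and Col5a1 shared 0 of their 40 and 46 borders between exons. When the borders of Col1a1 were placed 36 bases, 4 triplets, further from that end, 34 of the 40 coincided with borders of Col5a1, and 35 with borders of Col11a1. The shift was the best of those tried in steps of 9 bases. For Col1a1 and Col24a1 the best shift, of 108 bases, gave 10 shared borders. The best shifts were found on the same data.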
